A study of Mus musculus with 2 samples.

Results

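Rod photoreceptors with a raised share of mitochondrial RNA were examined in 2 single-cell libraries of sorted mouse retinal cells. They were chosen by 7 measured limits: at least 300 genes, at least 1000 unique molecular identifiers (UMIs, the counted transcripts), 2.5% to 20% mitochondrial UMIs, 12 rod genes at 3% of UMIs or more, 6 cone genes under 0.8%, 4 Müller glial genes under 0.5%, and fewer than 4 UMIs of 7 bipolar and amacrine genes. They numbered 4034 of the 23625 deposited barcodes. In the Muller library they were 1150 of 12316 barcodes (9.34%, 95% interval 8.83% to 9.86%), and in the MullerControl library 2884 of 11309 (25.5%, 24.7% to 26.3%). Below they are called mitochondria-rich rods, and barcodes that met every other limit with less than 2.5% mitochondrial UMIs are called mitochondria-poor rods (957 in Muller and 1786 in MullerControl).

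The Muller library, taken as the test group, and the MullerControl library, taken as its control, each came from retinas of mice aged 14 weeks that carry the Gt(ROSA)26Sortm9(CAG-tdTomato) allele on a B6.Cg background, a Cre-dependent tdTomato reporter. Eyes had received an adeno-associated virus (AAV) 8 weeks earlier, and tdTomato-positive cells were sorted from both groups, at a positive rate near 4.9% for the test sort and 10% for the control sort. The labels used here do not give the viral cargo, the promoter driving Cre or the number of mice pooled. Each group had 1 library, so no p-value was computed, and every interval is a 95% interval for counting error alone.

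A rod divides its work between compartments. The outer segment holds the discs where light is caught, the inner segment packs mitochondria in its ellipsoid together with the ribosomes and membranes that make outer segment protein, and the cell body is almost filled by a compact nucleus. Mitochondrial transcripts therefore lie mainly in the inner segment, while the long noncoding RNA Malat1 lies in the nucleus. No value in these data measures which compartments a barcode held, so inner segments were not observed directly and the cells are named by the rule.

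Promoter stretches of 250 bases are printed for 5 genes whose values are given below, as examples of the gene groups compared: 2 rod genes, 2 nuclear genes of the respiratory chain and 1 ribosomal protein gene. Sequences are from RefSeq on GRCm38.p6, 5′ to 3′ on the gene's strand and ending at the base before the transcript start, at chr1:87803430-87803679 (+) for Sag, chr6:3993758-3994007 (+) for Gngt1, chr11:115419920-115420169 (-) for Atp5h, chr4:123718187-123718436 (-) for Ndufs5 and chr10:80292181-80292430 (+) for Rps15. Capitals mark a match, on either strand, to the CRX core TAATCC, the NRL core TGCTGAC or the NRF1 site, which is GCGCA, any base, then GCGC. CRX and NRL are the transcription factors that drive rod genes, and NRF1 is a regulator of nuclear genes for mitochondrial proteins.
Sag: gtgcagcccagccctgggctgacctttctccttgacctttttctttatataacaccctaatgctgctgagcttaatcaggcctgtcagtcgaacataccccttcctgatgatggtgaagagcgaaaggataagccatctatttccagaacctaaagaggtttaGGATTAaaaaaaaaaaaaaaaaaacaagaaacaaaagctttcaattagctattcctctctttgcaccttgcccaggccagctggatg
Gngt1: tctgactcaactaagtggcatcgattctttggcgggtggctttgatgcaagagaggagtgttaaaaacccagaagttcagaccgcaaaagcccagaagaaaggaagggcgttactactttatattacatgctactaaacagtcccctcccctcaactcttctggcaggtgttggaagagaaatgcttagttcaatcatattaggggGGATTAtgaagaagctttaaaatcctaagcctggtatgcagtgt
Atp5h: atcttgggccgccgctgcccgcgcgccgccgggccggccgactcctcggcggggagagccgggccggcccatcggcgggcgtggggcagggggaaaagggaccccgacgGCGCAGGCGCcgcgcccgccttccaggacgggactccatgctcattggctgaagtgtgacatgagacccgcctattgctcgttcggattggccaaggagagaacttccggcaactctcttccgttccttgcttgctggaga
Ndufs5: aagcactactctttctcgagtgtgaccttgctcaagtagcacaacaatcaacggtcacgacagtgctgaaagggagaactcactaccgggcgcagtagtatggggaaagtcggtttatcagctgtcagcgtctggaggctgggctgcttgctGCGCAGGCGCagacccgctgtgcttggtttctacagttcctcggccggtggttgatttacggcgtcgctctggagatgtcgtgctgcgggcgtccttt
Rps15: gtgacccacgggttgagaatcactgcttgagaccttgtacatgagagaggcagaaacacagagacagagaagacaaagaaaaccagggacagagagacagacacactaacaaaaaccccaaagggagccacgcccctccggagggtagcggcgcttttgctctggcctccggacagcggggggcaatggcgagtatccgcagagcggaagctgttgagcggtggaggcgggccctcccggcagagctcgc
Sag (visual arrestin) and Gngt1 (the gamma subunit of rod transducin) each held the CRX core on the reverse strand, 87 to 82 and 44 to 39 bases before the start. Atp5h (a subunit of ATP synthase) and Ndufs5 (a subunit of complex I) held the NRF1 site 141 to 132 and 98 to 89 bases before the start, and the Rps15 stretch held none of the 3 motifs. Among promoters of the 8 rod genes of the rule found in the table, 3 (37.5%) held the CRX core, against 6.25% of all 32851 promoters. Of 63 promoters of complex I, IV and V genes, 13 (20.6%) held the NRF1 site, against 3.74% of all promoters, and 1 of 78 ribosomal protein promoters (1.28%) did. For Atp5h and Rps15, bases shortly after the stated start were not found in the transcript sequences of the gene. Their windows thus rest on the RefSeq start alone. These matches are letters in a window and not measured binding.

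The barcodes were checked against a rod gene with no part in the choice. Pde6g, the inhibitory subunit of the rod phosphodiesterase, which the rule did not use, stood at 13587 CPM (counts scaled to 1e6 nuclear-encoded UMIs) in mitochondria-rich rods of Muller and at 13181 CPM in those of MullerControl. Barcodes rich in glial genes held it at 2223 CPM in Muller and 1714 CPM in MullerControl, and barcodes rich in cone genes at 5867 CPM in Muller and 4694 CPM in MullerControl. A Pde6g UMI was found in 99.9% of mitochondria-rich rods of each library. Such a UMI was also found in 78.7% of Muller and 63.1% of MullerControl barcodes with at least 4 bipolar or amacrine UMIs. Those barcodes, of the same mitochondrial range, held Pde6g at 829 and 712 CPM and median depths of 3008 and 3533 UMIs. Detection of Pde6g alone thus did not mark a rod. The 12 rod genes, which chose the barcodes and are given as a description only, were all detected in 57.2% of mitochondria-rich rods of Muller and 65.1% of those of MullerControl, and at least 10 in 96.3% and 98.3%. Of 7 ganglion cell genes, Pou4f1, Pou4f2 and Slc17a6 had no UMI in the mitochondria-rich rods of either library. The other 4 together had 28 UMIs in Muller and 25 in MullerControl. Mitochondria-poor rods lacked the same 3 genes.

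Depth was lower in Muller, with a median of 1511 UMIs per mitochondria-rich rod against 1776 in MullerControl, and the summed UMIs were 1877065 and 5513910. Thinned to 1000 UMIs each, the median was 592 genes per cell in Muller and 564 in MullerControl (808 and 861 unthinned). The libraries shared 40 barcode sequences, of which 5 were mitochondria-rich rods in Muller, 10 in MullerControl and 1 in both. Xist, transcribed from the inactive X chromosome, stood at 148 CPM in Muller and 53.3 CPM in MullerControl, whereas the Y-linked Eif2s3y stood at 21.3 and 43.9 CPM, so both libraries held transcripts of both sexes in unequal shares.

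Mitochondrial share varied continuously in rods, without a gap at the limit. Of rods with at least 1000 UMIs and at most 20% mitochondrial UMIs, 54.6% in Muller (52.4% to 56.7%) and 61.8% in MullerControl (60.3% to 63.2%) lay at or above 2.5%. Their median share was 4.43% in Muller and 5.30% in MullerControl. Just inside the limit, at 2.5% to 3.0%, lay 148 cells of Muller and 290 of MullerControl, and just outside it, at 2.0% to 2.5%, lay 207 and 319. Between 2.5% and 5% stood 60.4% of the mitochondria-rich rods of Muller and 45.8% of those of MullerControl, between 5% and 10% stood 32.2% and 43.1%, and between 10% and 20% stood 7.39% and 11.1%.

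**Figure D1:**
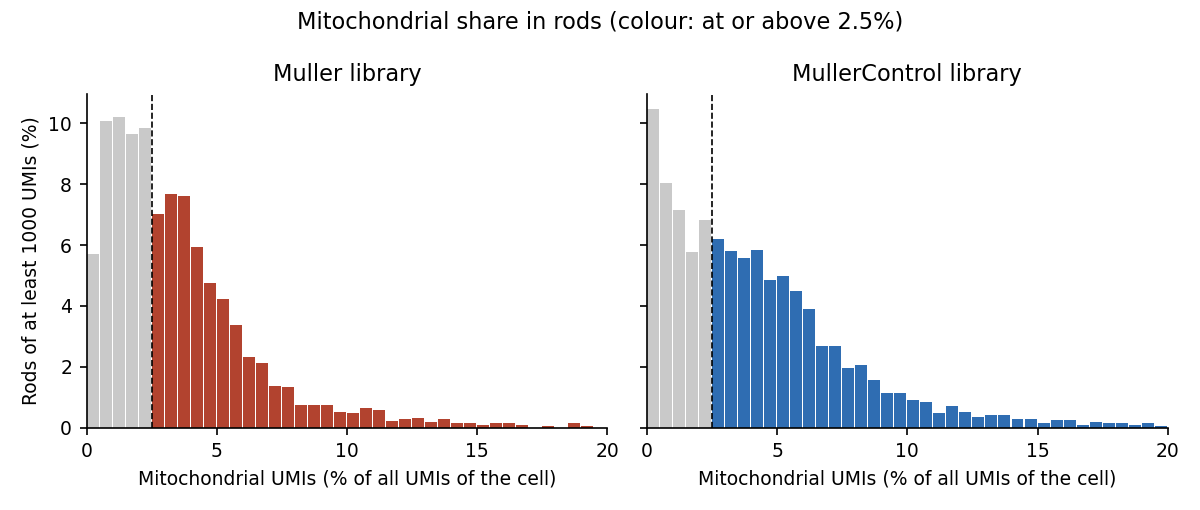
Histograms of the mitochondrial share of UMIs (x axis, percent) over rods with at least 1000 UMIs (y axis, percent of those rods), Muller at left and MullerControl at right, with bars at or above the 2.5% limit in colour and the rest in grey. The distribution runs through the dashed limit without a gap in both libraries, and 54.6% of Muller rods and 61.8% of MullerControl rods are in colour.

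Other cell classes reached the same mitochondrial range. It held 73.1% of Muller and 83.3% of MullerControl barcodes with at least 10 bipolar or amacrine UMIs, and 56.2% and 62.6% of those with cone genes at 2% of UMIs or more. Barcodes with glial genes at 2% or more were in the range least often, at 10.5% (7.01% to 14.9%) in Muller and 22.0% (17.8% to 26.7%) in MullerControl.

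The 13 mitochondrial mRNAs, which chose the cells and are given as a description only, made up 5.11% of all UMIs of mitochondria-rich rods in Muller and 5.81% in MullerControl. mt-Cytb, the cytochrome b of complex III, supplied 23.9% of these mitochondrial UMIs in Muller and 21.3% in MullerControl. mt-Co3 and mt-Co2, subunits of cytochrome oxidase, supplied 15.5% and 12.8% in Muller, against 16.8% and 13.1% in MullerControl. mt-Atp6, a subunit of ATP synthase, gave 14.4% in Muller and 17.3% in MullerControl. The makeup was thus much alike, with mt-Cytb, mt-Co1 and mt-Nd4 holding somewhat more of the total in Muller and mt-Atp6 and mt-Co3 somewhat less. mt-Nd6, the one of the 13 that is read from the other strand of the mitochondrial genome, had 38 UMIs in Muller and 131 in MullerControl.

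The mitochondria-rich rods fell to either side of a sparse range in Malat1. Malat1 (chr19:5795690-5802672, -), a noncoding RNA retained in the nucleus, had a median of 0.691% of UMIs per cell in Muller and 0.28% in MullerControl, but its upper quartiles reached 3.53% and 2.90%. Few cells lay in between: 40 of Muller (3.48%) and 99 of MullerControl (3.43%) stood from 1.5% to 3%. A limit of 2%, chosen after these values were seen, called 812 mitochondria-rich rods of Muller Malat1-poor (70.6%, 67.9% to 73.2%) and 2101 of MullerControl (72.9%, 71.2% to 74.5%). Malat1-poor cells were rarer among mitochondria-poor rods, at 38.4% in Muller (35.3% to 41.5%) and 29.2% in MullerControl (27.1% to 31.3%).

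**Figure D2:**
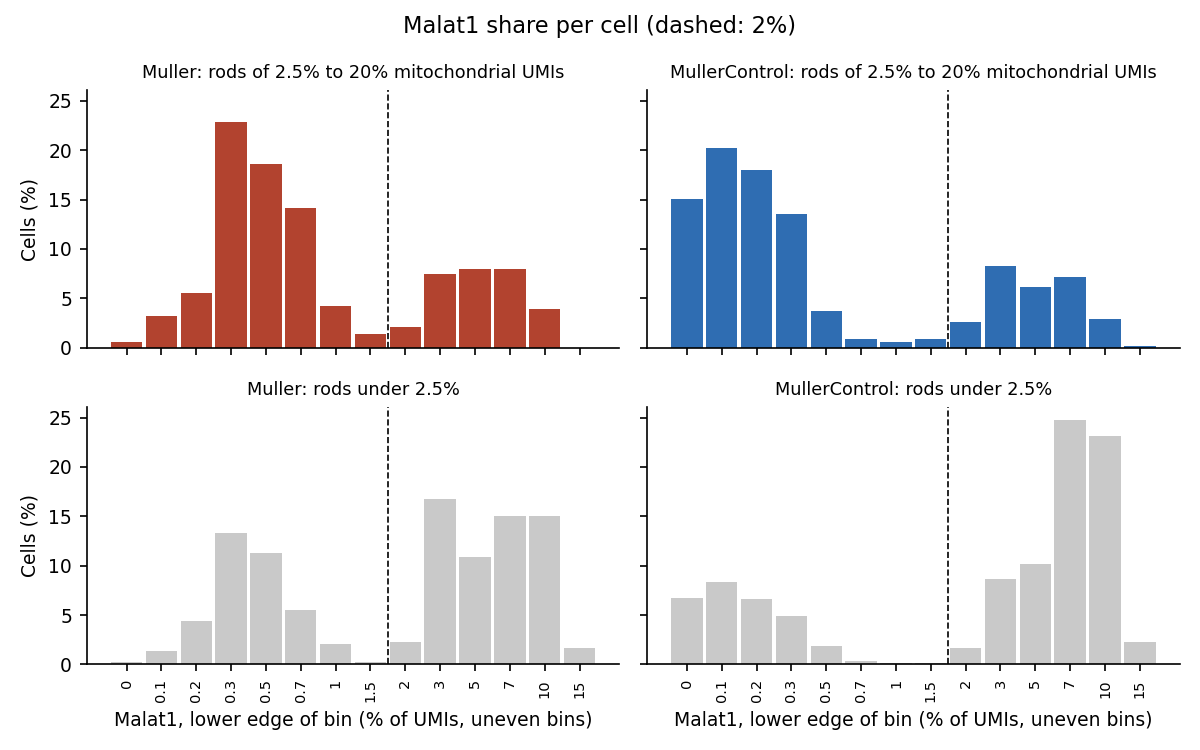
Share of cells (y axis, percent) by Malat1 share of UMIs (x axis, lower edge of uneven bins, percent) in mitochondria-rich rods (top, colour) and mitochondria-poor rods (bottom, grey), with Muller at left and MullerControl at right. Cells fall to either side of the dashed 2% line, and 70.6% of mitochondria-rich rods of Muller and 72.9% of those of MullerControl lie below it, against 38.4% and 29.2% of mitochondria-poor rods.

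Malat1-poor and Malat1-rich cells differed in many other transcripts, with like ratios in both libraries. Mitochondrial share differed little, with medians of 4.42% in Malat1-poor and 4.45% in Malat1-rich cells of Muller and of 5.44% and 4.56% in those of MullerControl. Thinned to 1000 UMIs, Malat1-poor cells had fewer genes, 576 against 641 in Muller and 548 against 639 in MullerControl. Across the 2833 genes with enough UMIs to be named in both libraries, the log2 ratios of the libraries had a Pearson correlation of 0.92, a description over genes, which are not independent replicates.

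Of 4799 genes with at least 50 UMIs in Muller, 449 (9.36%) were at least 1.5-fold higher in Malat1-poor cells and 1370 (28.5%) at least 1.5-fold lower, and of 7552 genes in MullerControl, 495 (6.55%) were higher and 3322 (44%) lower. Among the 2833 genes, 231 were higher in both libraries, which is a part of 333 in Muller and 370 in MullerControl, and 555 were lower in both, of 618 and 766. The lower genes were long. Their median span in the annotation was 47.5 kb in Muller and 36.8 kb in MullerControl, that of the higher genes 8.92 and 7.45 kb, and that of all genes tested 23.8 and 24.4 kb.

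Genes lowest in Malat1-poor cells were led by nuclear noncoding RNAs. Xist stood at 17.1 CPM in Malat1-poor and 438 CPM in Malat1-rich cells of Muller, and at 5.03 and 161 CPM in those of MullerControl. Mir124a-1hg, the host transcript of the neuronal microRNA miR-124, was at 48.1 against 978 CPM in Muller (log2 ratio -4.31) and at 45.0 against 1089 CPM in MullerControl (-4.59). Malat1 itself, which made the split, had log2 ratios of -3.45 and -4.47. Protein-coding genes among the 10 lowest included Rnpc3, which codes for a protein of the minor spliceosome, at 24.5 against 382 CPM in Muller and 25.4 against 375 CPM in MullerControl, and the ciliary gene Cspp1, at 22.0 against 267 and 23.7 against 294 CPM.

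Transcription factors and immediate early genes had negative medians, as did all genes tested (-0.18 in Muller and -0.46 in MullerControl). Of 11 photoreceptor transcription factors measured, 5 were lower in Muller (median log2 ratio -0.58) and 6 in MullerControl (-0.74), with none higher. Over all genes tested, 28.5% were lower in Muller and 44% in MullerControl. With 11 genes, these counts do not set the class apart from all genes tested. Neurod1, a factor that keeps photoreceptors alive, had 560 CPM in Malat1-poor and 1088 CPM in Malat1-rich cells of Muller, and 504 and 1266 CPM in those of MullerControl. Otx2, a factor at the head of photoreceptor fate, had log2 ratios of -0.81 and -1.13. Crx, its partner in driving photoreceptor genes, had -0.18 (-0.37 to 0.02) in Muller and -0.37 in MullerControl. Immediate early genes, the first genes transcribed after a stimulus, were lower for 5 of 6 measured in Muller (-0.92) and 7 of 7 in MullerControl (-1.06), including Jun at 49.8 against 91.9 CPM and 33.8 against 91.1 CPM.

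Ribosomal and respiratory chain genes stood on the higher side, where 9.36% of all genes tested were higher in Muller and 6.55% in MullerControl. Of 84 cytosolic ribosomal protein genes, 71 were higher in Malat1-poor cells of Muller (median 0.81) and 80 in those of MullerControl (1.02), and Rps15 had 908 CPM in Malat1-poor and 431 CPM in Malat1-rich cells of Muller and 1252 and 584 CPM in those of MullerControl. Nuclear genes of the respiratory chain stood with them: complex I had 16 of 38 higher in Muller (0.53) and 22 of 38 in MullerControl (0.64), complex IV had 7 of 11 (0.64) and 11 of 12 (0.77), and complex V had 9 of 18 (0.58) and 13 of 18 (0.72). Ndufa4, a subunit of cytochrome oxidase first assigned to complex I, had 2169 against 1151 CPM in Muller and 2571 against 1252 CPM in MullerControl. Atp5h had 908 against 532 CPM in Muller (0.77) and 997 against 581 CPM in MullerControl (0.78), and Ndufs5 had 405 against 241 CPM in Muller (0.74) and 417 against 271 CPM in MullerControl (0.62). Tricarboxylic acid cycle enzymes, also mitochondrial, had none of 16 higher in either library, with medians of -0.02 and -0.13.

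Rod genes were divided. Pde6g was at 15745 CPM in Malat1-poor and 8820 CPM in Malat1-rich cells of Muller (0.84) and at 15345 and 8378 CPM in those of MullerControl (0.87). Gngt1 had 0.79 and 0.82, and Gnat1, the alpha subunit of rod transducin, 0.60 and 0.66. Sag went slightly the other way (-0.12 and -0.13), and Rp1, a protein of the ciliary axoneme coded by a very large exon, was lower at 1995 against 3400 CPM in Muller (-0.77) and 2082 against 4227 CPM in MullerControl (-1.02). Of the 12 rod genes of the rule, which chose the cells, 2 were higher and 1 was lower in each library. Over all genes tested, 9.36% were higher and 28.5% lower in Muller, and 6.55% and 44% in MullerControl.

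Set against mitochondria-poor rods of their own library, mitochondria-rich rods had a smaller share of Malat1 and a larger share of Pde6g. Malat1 was at 24129 CPM in mitochondria-rich and 45545 CPM in mitochondria-poor rods of Muller (log2 ratio -0.92, -0.93 to -0.90), and at 20415 and 57663 CPM in those of MullerControl (-1.50, -1.51 to -1.49). Pde6g was at 13587 against 11287 CPM in Muller (0.27, 0.24 to 0.29) and at 13181 against 9023 CPM in MullerControl (0.55, 0.53 to 0.57). Values are shares of summed RNA, so less of one transcript per cell and more of the others cannot be told apart. Of 6973 genes tested in Muller, 139 (1.99%) were at least 1.5-fold higher in mitochondria-rich rods and 655 (9.39%) lower, with counting intervals clear of no difference for 105 and 522. Of 8771 in MullerControl, 244 (2.78%) were higher and 2389 (27.2%) lower, clear for 222 and 2292. In either direction the shares were 11.4% in Muller and 30% in MullerControl. Of the 6902 genes tested in both libraries, 654 were lower in Muller, 1578 in MullerControl and 419 in both. These 419 were 64.1% of the Muller and 26.6% of the MullerControl set. Higher were 111 in Muller, 214 in MullerControl and 20 in both, which is 18.0% and 9.35% of these sets.

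Among the named genes higher in both libraries were Lars2, the mitochondrial leucyl-tRNA synthetase, at 643 against 393 CPM in Muller (0.71, 0.57 to 0.85) and 941 against 504 CPM in MullerControl (0.90, 0.82 to 0.98), and Romo1, a small protein of the inner mitochondrial membrane, at 187 against 109 CPM (0.78) and 207 against 130 CPM (0.67). Canx (calnexin) and Cpe (carboxypeptidase E), which work in the endoplasmic reticulum and secretory pathway, had log2 ratios of 0.62 and 0.51 in Muller and of 0.73 and 0.84 in MullerControl. Atp6ap1, an accessory subunit of the vacuolar proton pump, had 0.78 and 0.55. The top ratio belonged to AY036118 (0.65 and 1.16), a locus that overlaps the ribosomal RNA repeat. So does Gm42418 (0.54 and 0.79), and neither count can be assigned to 1 transcript. Whether ribosomal RNA reads also entered the Lars2 count was not tested. Gm42418 alone took 63943 CPM in mitochondria-rich and 44123 CPM in mitochondria-poor rods of Muller, and 64301 and 37261 CPM in those of MullerControl.

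The lower named genes were Malat1, Mir124a-1hg, the ubiquitin ligase gene Rnf207, the interferon regulatory factor gene Irf3, the condensin gene Ncapd3 and the predicted or uncharacterised loci Gm4258, 6430590A07Rik, Gm19667, 4632427E13Rik and Gm10544. Rnf207 had 85.9 CPM in mitochondria-rich and 189 CPM in mitochondria-poor rods of Muller (-1.13), and 104 and 291 CPM in those of MullerControl (-1.48). Ppargc1a, a coactivator known for driving mitochondrial gene programmes, also stood lower, at 38.2 against 64.7 CPM in Muller (-0.75) and 39.3 against 74.3 CPM in MullerControl (-0.92).

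Nuclear genes of the respiratory chain stood slightly higher in mitochondria-rich rods for complexes I, IV and V. Over all genes tested, 1.99% were at least 1.5-fold higher in Muller and 2.78% in MullerControl. In Muller none of 38 complex I, 11 complex IV or 18 complex V genes reached 1.5-fold in either direction (medians 0.15, 0.18 and 0.19, against -0.11 for all genes), and in MullerControl 7 of 38, 5 of 12 and 5 of 18 were higher (0.45, 0.55 and 0.52, against -0.31). The 14 genes of complexes II and III and cytochrome c had a median of -0.01 in Muller, with none higher and 1 lower, and of 0.26 in MullerControl, with 1 higher. Cox4i1, a core nuclear subunit of cytochrome oxidase, was at 1287 against 1140 CPM in Muller (0.18, 0.09 to 0.26) and at 1288 against 833 CPM in MullerControl (0.63, 0.56 to 0.69). Ribosomal protein genes had 0 of 84 higher in Muller (0.37) and 61 of 84 in MullerControl (0.66). Import, carrier and quality control genes of the mitochondrion had medians of -0.00 and 0.11. In Muller 1 of 32 was higher and 2 lower, and in MullerControl 2 of 34 were higher and 2 lower.

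Most cone markers stood higher as well, although the rule capped them, but their sum differed less. Of 7 measured, 5 were higher in mitochondria-rich rods of Muller (median 0.66), against 1.99% of all genes. In MullerControl 6 of 8 were higher (0.71), against 2.78% of all genes. Ratios ran from -0.46 to 1.42 in Muller and from -0.34 to 1.05 in MullerControl, so not every marker went up. Pde6h, the cone phosphodiesterase inhibitor, stood at 85.9 against 45.3 CPM in Muller and 99.7 against 62.5 CPM in MullerControl. All 9 cone markers together stayed near 0.05% of nuclear-encoded UMIs, at 0.0518% in mitochondria-rich and 0.0496% in mitochondria-poor rods of Muller and at 0.0468% and 0.0407% in those of MullerControl. Their part in the other ratios was not tested.

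When only Malat1-poor cells were compared, list medians lay nearer 0 and fewer genes were lower. The share of genes called higher was not smaller over genes of at least 50 UMIs, but was smaller over those of at least 200. There it was 0.271% against 0.548% with all cells in Muller, and 0.573% against 3.15% in MullerControl. Of 4461 genes in Muller, 176 (3.95%) were higher and 143 (3.21%) lower in Malat1-poor mitochondria-rich rods than in Malat1-poor mitochondria-poor rods. Counting intervals were clear of no difference for 79 and 81. Of 6542 in MullerControl, 257 (3.93%) were higher and 234 (3.58%) lower, clear for 67 and 111. Ribosomal protein genes had medians of 0.07 and 0.08, complex I 0.02 and 0.04, complex IV 0.02 and 0.03 and complex V 0.02 and 0.03, with none of these genes past 1.5-fold in either library. The 12 rod genes had a median of -0.02 in both. Across 2615 genes with enough UMIs to be named in both libraries, the correlation between the libraries' log2 ratios was 0.07. With all cells it was 0.57, but across the 6902 genes of at least 50 UMIs tested in both. The mitochondria-poor sums were also smaller here (610693 against 1699934 nuclear-encoded UMIs in Muller), so the correlations are not directly comparable. Pde6h remained higher, at 86.4 against 40.9 CPM in Muller (1.06) and 92.2 against 55.7 CPM in MullerControl (0.72).

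**Figure D3:**
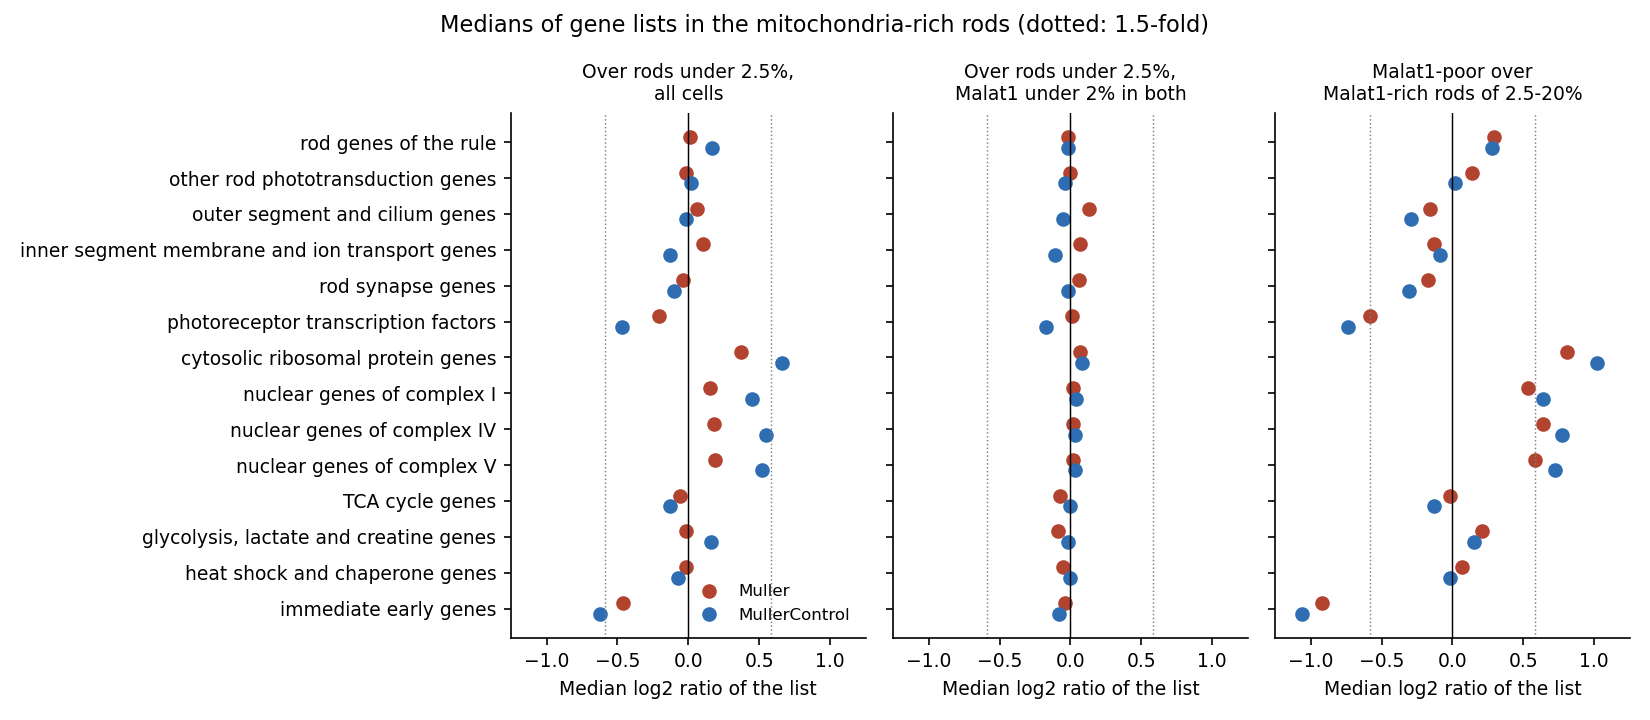
Median log2 ratio of 14 gene lists (x axis) in mitochondria-rich over mitochondria-poor rods with all cells (left), the same with Malat1-poor cells alone (middle) and Malat1-poor over Malat1-rich mitochondria-rich rods (right), with 1 point per library and dotted lines at 1.5-fold. The ribosomal medians of 0.37 in Muller and 0.66 in MullerControl at left stand at 0.07 and 0.08 in the middle, and at 0.81 and 1.02 at right.

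Between mitochondria-rich rods of high and low mitochondrial share, the median ratios of 2 classes of rod genes had opposite signs. The classes were genes that coded for membrane or secreted proteins and genes that coded for soluble ones. Rod genes had been sorted into 30 membrane or secreted, 29 soluble or peripheral and 4 unassigned after these values were seen. Both classes held rod genes of the rule, so the medians and counts are a description only. Between cells of 10% to 20% and cells of 2.5% to 5% mitochondrial UMIs, the median log2 ratio was 0.29 in Muller and 0.25 in MullerControl for 26 membrane or secreted genes, of which 19 and 24 were above 0. For soluble genes it was -0.18 over 26 in Muller and -0.09 over 29 in MullerControl, with 8 and 10 above 0. Over all genes the medians were -0.04 and -0.05, and 465 (12.5%) were at least 1.5-fold higher and 585 (15.7%) lower of 3721 in Muller, against 379 (6.01%) and 615 (9.75%) of 6310 in MullerControl, with only 2 and 1 of the membrane genes past 1.5-fold.

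Slc24a1, the rod sodium-calcium-potassium exchanger (chr9:64922861-64951607, -), had 3401 CPM at 10% to 20% and 2860 CPM at 2.5% to 5% in Muller (0.25, 0.09 to 0.41), and 3408 and 2764 CPM in MullerControl (0.30, 0.22 to 0.38). Cdhr1, a cadherin at the base of the outer segment, had 576 against 390 CPM in Muller (0.56) and 727 against 495 CPM in MullerControl (0.55). Abca4, the retinoid flippase of the disc rim, had 669 against 455 CPM in Muller (0.55) and 689 against 516 CPM in MullerControl (0.42). Slc6a6, the taurine transporter, had 2128 against 1672 CPM in Muller (0.35) and 2107 against 1746 CPM in MullerControl (0.27). The intervals of these genes lay above 0 in both libraries.

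Several soluble proteins of the same cascade had less. Sag (chr1:87803680-87845158, +) was at 8949 CPM at 10% to 20% and 11540 CPM at 2.5% to 5% in Muller (-0.37, -0.46 to -0.27), and at 9295 and 11300 CPM in MullerControl (-0.28, -0.33 to -0.23). Rcvrn (recoverin, a calcium sensor that slows pigment shut-off) was at 4944 against 7667 CPM (-0.63) and 5838 against 7686 CPM (-0.40). Pdc (phosducin) had -0.39 and -0.25, Guca1a (a calcium sensor of guanylate cyclase) -0.51 and -0.38, and the glycolytic enzyme Aldoa -0.47 and -0.29. The classes were not pure. Pde6a, classed as soluble or peripheral, had 1459 against 1361 CPM in Muller (0.10, -0.15 to 0.34) and 1921 against 1763 CPM in MullerControl (0.12, 0.02 to 0.23), and Gnat1 of the same class had 4535 against 4702 CPM in Muller (-0.05) and 7071 against 6338 CPM in MullerControl (0.16). The membrane channel gene Cnga1 had 2565 against 2929 CPM in Muller (-0.19) and 3025 against 2987 CPM in MullerControl (0.02). The disc rim genes Prph2 (-0.08 and 0.01) and Rom1 (-0.15 and -0.04) were near 0, while the soluble Rp1l1 (0.75 and 0.50) and Rp1 (0.31 and 0.11) stood higher.

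In Malat1-poor cells alone the membrane or secreted genes had medians of 0.39 in Muller and 0.26 in MullerControl and the soluble ones of -0.19 and -0.10, where 11.6% of all genes tested in Muller were higher and 18.8% lower, against 6.94% and 9.36% in MullerControl. The nuclear genes of complexes I, IV and V did not follow the mitochondrial transcripts: their medians were -0.31, -0.27 and -0.31 in Muller and -0.15, -0.13 and -0.18 in MullerControl. The bin of 10% to 20% was small, with 85 cells in Muller and 321 in MullerControl. It also held more bipolar transcripts (medians 0.76 and 1.13, with 4 of 7 and 4 of 5 higher) and Müller glial ones (0.49 and 0.79). In MullerControl it held more cone ones (1.57, 6 of 7 higher). These lists include genes that the rule capped, and their part in the rod gene ratios was not tested.

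**Figure D4:**
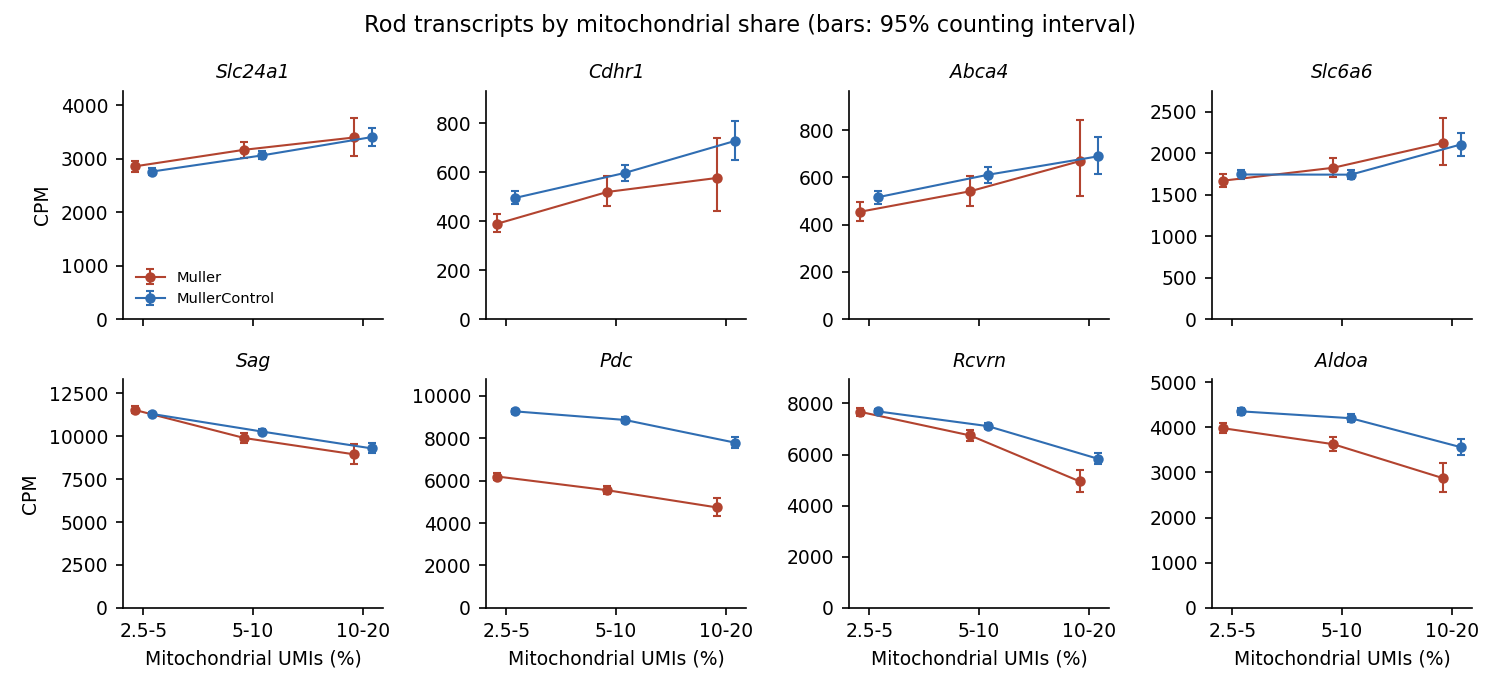
Level of 8 rod transcripts (y axis, CPM, from 0) in mitochondria-rich rods of 2.5% to 5%, 5% to 10% and 10% to 20% mitochondrial UMIs (x axis), with bars for 95% counting intervals and 1 line per library. Slc24a1, Cdhr1, Abca4 and Slc6a6 stand higher and Sag, Pdc, Rcvrn and Aldoa lower at 10% to 20% than at 2.5% to 5% in both libraries. Sag, Pdc and Rcvrn are among the rod genes that chose the cells.

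Between the libraries, mitochondria-rich rods were alike in their respiratory and most of their rod genes and differed most in transcripts of other cell types. Of 8319 genes tested, 521 (6.26%) were at least 1.5-fold higher in Muller and 238 (2.86%) lower, 9.12% in either direction, with intervals clear of no difference for 428 and 119. No complex I, IV or V gene was past 1.5-fold (medians -0.02, -0.15 and -0.10). Pde6g differed by a log2 ratio of 0.04 and Sag by 0.02. Of the 12 rod genes, Pdc alone was past 1.5-fold, at 5915 CPM in Muller and 8985 CPM in MullerControl (-0.60, -0.63 to -0.57), while Gnat1 stood at 4763 and 6680 CPM (-0.49, -0.52 to -0.45), Gngt1 at 10337 and 13158 CPM (-0.35), Pde6a, a catalytic subunit of the phosphodiesterase, at 1364 and 1797 CPM (-0.40), and the rod fate factor Nr2e3 at 1940 and 1577 CPM (0.30). Ribosomal protein genes had 5 of 84 lower (median -0.20), among them Rps19 at 332 and 570 CPM (-0.78). Ptbp1, a splicing regulator whose loss has been studied as a way to turn glia into neurons, had 43 UMIs in Muller (24.1 CPM) and 87 in MullerControl (16.8 CPM), with a log2 ratio of 0.52 whose interval ran from -0.04 to 1.07.

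Bipolar markers were higher in Muller for 11 of 12 genes (median 2.03) and amacrine markers for 4 of 4 measured (2.47). Müller glial markers were higher for 8 of 8 (1.27), where 6.26% of all genes tested were higher. The rule capped Pcp2, Gng13, Trpm1 and Grm6 of the bipolar list. It also capped Gad1, Gad2 and Slc6a9 of the amacrine list and Glul, Rlbp1, Apoe and Slc1a3 of the glial list. These counts and medians are thus a description. Pcp2, a regulator of G protein signalling in bipolar cells (chr8:3623371-3625545, -), was at 256 CPM in Muller and 37.9 CPM in MullerControl (2.75, 2.51 to 3.00), and Gng13, a G protein subunit of ON bipolar cells, at 174 and 35.8 CPM (2.27). Both were present in other barcodes of the same library: Pcp2 in Muller was at 226 CPM in mitochondria-poor rods, 155 CPM in cone-gene barcodes and 194 CPM in glial-gene barcodes, against 35.7, 28.3 and 37.4 CPM in MullerControl. Barcodes rich in bipolar or amacrine UMIs held it at 5733 CPM in Muller and 4917 CPM in MullerControl. A Pcp2 UMI was found in 32.3% of mitochondria-rich rods of Muller and 6.07% of those of MullerControl, in 30.7% and 8.04% of cone-gene barcodes (median depths 2234 and 3031 UMIs) and in 26.3% and 6.70% of glial-gene barcodes (1596 and 1565 UMIs), and thinned to 1000 UMIs the rods' shares were 23.2% and 3.99%. In Muller the rods' level was above that of cone-gene barcodes. In both libraries the rods' share lay near that of the glial- and cone-gene barcodes. The rule used Pcp2 and Gng13 among its 7 capped bipolar and amacrine genes. Cone-gene and glial-gene barcodes were held to the same cap of fewer than 4 UMIs, and barcodes rich in these UMIs were chosen by them. Likeness among the capped groups was thus partly set by the choice. These values are a description, and the source of the UMIs was not tested. Nap1l5 and Snhg11 were less even: Nap1l5 stood at 128 CPM in cone-gene barcodes of Muller and 87.5 CPM in those of MullerControl, and Snhg11 at 314 CPM in glial-gene barcodes of Muller and 26.7 CPM in those of MullerControl.

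**Figure D5:**
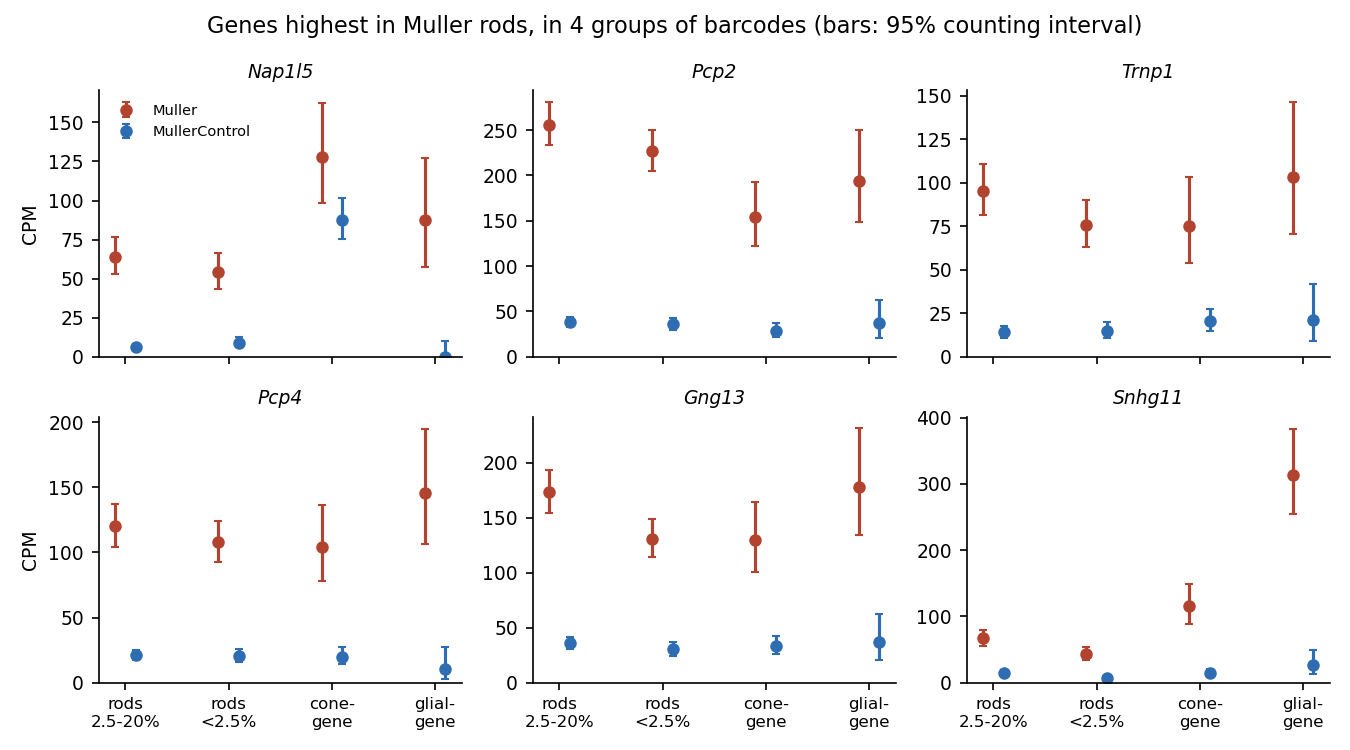
Level (y axis, CPM, from 0, bars for 95% counting intervals) of the 6 genes with the highest ratio of Muller over MullerControl in mitochondria-rich rods among genes of at least 100 UMIs and 50 CPM, in mitochondria-rich rods, mitochondria-poor rods, cone-gene barcodes and glial-gene barcodes (x axis). For Pcp2 all 4 groups lie between 155 and 256 CPM in Muller and between 28.3 and 37.9 CPM in MullerControl.

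Nap1l5, a nucleosome assembly protein gene active in neurons, had the top ratio among genes of at least 100 UMIs and 50 CPM, 64 CPM in Muller and 5.97 CPM in MullerControl (3.36, 2.84 to 4.04), and the next 9 genes were Pcp2, Trnp1, Pcp4, Gng13, Snhg11, Gucy1a1, Neurod4, Cabp5 and Gpm6a, of which Pcp2, Pcp4, Gng13, Neurod4 and Cabp5 were on the bipolar list. Barcodes with at least 4 bipolar or amacrine UMIs were 33.2% of all barcodes in Muller and 12.4% in MullerControl. The rule let up to 3 such UMIs through, and 41.7% of mitochondria-rich rods in Muller and 82.8% in MullerControl had none. Lower in Muller were AY036118 (489 and 1046 CPM), the inducible heat shock gene Hspa1b (42.1 and 81.4 CPM), the photoreceptor nuclear receptor gene Esrrb (78.6 and 130 CPM, -0.72), Ing4, Rps19, Snhg6, Rps29, Lpin2, Pitpnm3 and Magoh. Mitochondria-poor rods gave 262 genes higher (3.23%) and 789 lower (9.73%) of 8109, and Malat1-poor mitochondria-rich rods 500 (7.35%) and 196 (2.88%) of 6800, with the bipolar and glial markers again among the higher genes in mitochondria-poor rods (9 of 10 and 7 of 7).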

How the data were processed

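The authors deposited 1 filtered matrix of UMI counts per library, made with Cell Ranger 4.0.0 per the file headers, with 32285 features and no barcode under 500 UMIs. Seurat 4.0.5 and the builds mm10 and GRCh38 stand in the submitters' processing notes. The members, gene lists and limits were chosen with earlier results of these data known, and the Malat1 limit, the mitochondrial bins and the protein classes after seeing values. Counts were summed over cells per library and group with Python 3.11.15, numpy 2.4.6, scipy 1.17.1 and pandas 2.3.3, and nuclear-encoded genes were scaled to CPM. Log2 ratios used 1 added count, over genes with at least 50 UMIs in both sums together, and called means at least 1.5-fold. Intervals are exact Poisson or Clopper-Pearson, for counting error only. Named genes were the 12 rod genes, the mitochondrial mRNAs, Malat1, Xist and Ptbp1, the 10 highest and 10 lowest ratios among genes of at least 100 UMIs and 50 CPM, and in each list the 4 highest levels and 3 largest ratios. Some items are not reported here. Rnpc3, Cspp1 and genes of the bins and Pde6g in other barcodes, outside that rule, were chosen after their values were seen. No doublets were removed: the Scrublet threshold in scanpy 1.11.5 called 2 barcodes in Muller and 0 in MullerControl and did not work, so removing 1171 and 941 top-scoring barcodes was an alternative. Summed depth was 25622379 UMIs in Muller and 23549118 in MullerControl. The code was tested on simulated data.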

Additional observations from a re-analysis of the deposited data

Results flagged for a closer look

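Among genes tested in both libraries, 10 were at least 1.5-fold higher in mitochondria-rich than in mitochondria-poor rods of one library and at least 1.5-fold lower in the other; these opposite directions were not tested. The log2 ratios were 1.05 in Muller and -0.87 in MullerControl for Haus2, 0.63 and -0.70 for Zgpat, 0.67 and -0.60 for Ints8, and 0.62 and -0.91 for Tmem145. For Neurl4 they were 0.97 in Muller and -0.60 in MullerControl, for Vcpkmt 1.22 and -0.86, for Lmbrd2 0.91 and -0.82, for Kdm4b 0.89 and -0.65, and for Neurl1a 0.64 and -0.97. Itgb3bp ran the other way, at -1.34 in Muller and 0.61 in MullerControl. All 10 were low in counts, with 51 to 94 UMIs over both sums in Muller and 90 to 214 in MullerControl.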

How the results depend on the processing

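No paired analysis was possible because each group had 1 library and the groups share fewer than 2 replicate numbers. With a mitochondrial limit of 2% the share of rods included was 64.4% in Muller and 68.6% in MullerControl, 1 list median stayed past 1.5-fold in Muller, and the red cell list in MullerControl turned to 4.32; with 5% there were 455 and 1563 cells, at 21.6% and 33.5%. With at least 1500 UMIs there were 588 cells in Muller, shares of 51.0% and 66.2%, 3 lists past 1.5-fold between libraries, 357 genes lower in Muller, and 161 genes higher and 3 lists in MullerControl. With rod genes at 5% or more the MullerControl share was 66.5%, with 3 lists between libraries, 0 in Muller and 92 genes higher in MullerControl. With 0 bipolar or amacrine UMIs there were 479 cells in Muller, 478 genes lower between libraries, 3 lists between libraries and 0 in Muller. Without the top doublet scores the MullerControl share was 59.9% and 3 lists passed between libraries, as with thinned cells, and CPM over all UMIs gave 155 genes higher in MullerControl. A minimum of 200 UMIs gave 78 higher and 42 lower between libraries, 16 and 109 in Muller and 1132 lower in MullerControl; a minimum of 1 gave 3647, 2292, 2232, 2939, 2315 and 4563, in the order library, Muller, MullerControl, higher before lower. With Malat1-poor cells alone, added after seeing the data, 143 genes were lower in Muller, with 1 list and 7 of the named genes past 1.5-fold, and 234 in MullerControl, with 1 list and 2 named genes. There the log2 ratio turned in Muller to 0.05 for Rnf207, 0.43 for Gm19667, 1.19 for 4632427E13Rik, 0.77 for Mir124a-1hg, 0.14 for Malat1 and 0.24 for Gm10544, and in MullerControl to 0.26 for Gm4258, 2.59 for 6430590A07Rik, 1.42 for Gm19667, 0.34 for 4632427E13Rik, 0.36 for Mir124a-1hg, 0.21 for Malat1, 0.52 for Gm10544, 1.20 for Ncapd3 and 1.83 for Xist. A Malat1 limit of 1% called 65.0% of Muller cells poor, and 3% called 75.4% in MullerControl. The causes were not tested. With at least 1500 UMIs, 45 of 106 single-gene ratios left their counting interval, and with thinned cells 26 did.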

Other observations

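In mitochondria-rich rods of Muller over those of MullerControl, 3 of 16 heat shock and chaperone genes measured were at least 1.5-fold higher and 1 lower (median log2 ratio 0.18), and 3 of 17 antioxidant and metallothionein genes were higher and none lower (0.03), against 6.26% of all genes higher and 2.86% lower. Müller glial markers were higher for 8 of 8 genes in the same comparison (1.27), and their part in these values was not tested. The genes named here were picked after their values were seen. Cryab, a small heat shock protein, was at 50.5 CPM in Muller and 23.9 CPM in MullerControl (log2 ratio 1.07), Mt1, a metallothionein, at 68.5 and 24.6 CPM (1.46), and Prdx6, a peroxiredoxin, at 71.9 and 34.9 CPM (1.04). Hspa8, a constitutive chaperone, was at 1421 and 980 CPM (0.54). Hspa1b, the inducible one, was lower, at 42.1 and 81.4 CPM (-0.95).

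The direction for haemoglobin transcripts in MullerControl rods depended on the mitochondrial limit: the median log2 ratio of the 3 genes, mitochondria-rich over mitochondria-poor rods, was -5.01 with the limit at 2.5% and 4.32 with it at 2%. Only the 319 cells of MullerControl at 2.0% to 2.5% change side between these limits, so the direction rests on those cells. How many cells held these UMIs is not given. The values that follow hold for 2.5%, are sums over cells and need not be levels of a typical rod. Hbb-bs was at 7.51 CPM in mitochondria-rich and 88.9 CPM in mitochondria-poor rods of MullerControl, and Hba-a1 at 2.503 and 93.2 CPM. The red cell list had 0 UMIs in mitochondria-rich and 1 UMI in mitochondria-poor rods of Muller, against 61 and 789 UMIs in those of MullerControl.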
